A study of Mus musculus with 7 samples.

Results

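The genes described here are 35 type I interferon-stimulated genes, chosen by name from a list of symbols that was drawn up with earlier results of these data known. All 35 were among the 25033 genes listed in each library, and all 35 passed the filter for low counts that left 13462 genes to be tested. RNA sequencing had been carried out on primary T-cells of 4 ORP4L KI mice and 3 WT littermates, with 1 library per mouse. Mice of both groups were C57BL/6J, and all were 15 months old according to the labels. ORP4L KI mice carry the coding sequence of human ORP4L, an oxysterol-binding protein, in the Rosa26 locus behind a CAG promoter and a stop cassette between loxP sites, followed by a 3x Flag tag and IRES-EGFP. The stop cassette is removed by Cre made from the T-cell promoter of Lck, so that ORP4L is made in T-cells. The ORP4L KI mice were moribund with T-cell leukemia when they were sampled, so that genotype and disease state cannot be told apart. Whether the WT littermates carried the Lck-Cre transgene, whether the cells came from blood or spleen, and whether they had been cultured with IL-2 and PHA before RNA extraction are not given for these libraries.

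Type I interferons are secreted by cells that sense viral or displaced nucleic acids. They bind the receptor made of Ifnar1 and Ifnar2, whose kinases Jak1 and Tyk2 signal through Stat2. Stat2 and Irf9 are subunits of the factor ISGF3, which binds the interferon-stimulated response element in the promoters of the genes described here. Many of the proteins made in this way detect viral RNA or block steps of viral replication, Irf7 amplifies the response and Usp18 restrains it. T-cells keep a low level of many of these genes without infection. Plasmacytoid dendritic cells, the main producers of type I interferon, hold high levels of some of them, among them Irf7 and Bst2.

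Promoter sequences are shown first, because ISGF3 acts through the response element. The promoter sequences came from RefSeq with build GRCm38.p6, which held an entry for 26 of the 35 members, 30 promoters in all, each from 250 bases before to 50 bases after the transcript start. The core of the response element, GAAANNGAAA, was searched on both strands, and at least 1 match was found in 12 of the 30 member promoters (40.0%), against 1131 of all 32851 promoters (3.44%). The 12 members with a match were Bst2, Ddx58, Eif2ak2, Ifih1, Ifit1, Ifit3, Ifitm3, Isg15, Oas1a, Oas3, Rsad2 and Stat2. The gamma-activated site TTCNNNGAA, which is its own reverse complement, was found in 7 member promoters (23.3%), those of Bst2, Eif2ak2, Ifi35, Ifit2, Ifitm3, Isg20 and Oas1a, against 2726 of all promoters (8.3%). Bst2, Eif2ak2, Ifitm3 and Oas1a held both motifs. Dhx58, Mx1, Mx2, Oas2, Parp14, Parp9, Rtp4, Usp18 and Zbp1 had no promoter entry, so no motif was searched for them. The 160 bases before the transcript start of the promoter entry are given for the 3 members called lower that had an entry (Bst2, Oasl1 and Oasl2), and for Isg15, Ifit1 and Ifit3 as members with repeated matches. Each is written on the strand of its gene, 5′ to 3′, with matches to GAAANNGAAA or, where the match lies on the other strand, to its reverse complement in capitals.
Bst2 (chr8:71537473-71537632, minus strand): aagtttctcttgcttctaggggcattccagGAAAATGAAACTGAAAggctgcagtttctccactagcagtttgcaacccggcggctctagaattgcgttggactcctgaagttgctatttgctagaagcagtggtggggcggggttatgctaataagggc
Oasl1 (chr5:114923080-114923239, plus strand): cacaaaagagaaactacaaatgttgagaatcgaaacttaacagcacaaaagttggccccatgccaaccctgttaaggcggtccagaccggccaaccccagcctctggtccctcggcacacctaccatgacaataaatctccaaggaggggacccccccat
Oasl2 (chr5:114896774-114896933, plus strand): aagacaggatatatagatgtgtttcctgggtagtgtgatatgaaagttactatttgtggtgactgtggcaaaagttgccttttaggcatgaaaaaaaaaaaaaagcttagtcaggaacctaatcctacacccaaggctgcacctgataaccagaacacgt
Isg15 (chr4:156200819-156200978, minus strand): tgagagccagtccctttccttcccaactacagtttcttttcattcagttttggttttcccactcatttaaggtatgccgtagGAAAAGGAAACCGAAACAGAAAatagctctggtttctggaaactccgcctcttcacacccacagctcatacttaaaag
Ifit1 (chr19:34640729-34640888, plus strand): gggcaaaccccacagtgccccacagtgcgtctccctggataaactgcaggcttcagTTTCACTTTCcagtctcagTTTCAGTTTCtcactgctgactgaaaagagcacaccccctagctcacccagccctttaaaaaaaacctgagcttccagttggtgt
Ifit3 (chr19:34583369-34583528, plus strand): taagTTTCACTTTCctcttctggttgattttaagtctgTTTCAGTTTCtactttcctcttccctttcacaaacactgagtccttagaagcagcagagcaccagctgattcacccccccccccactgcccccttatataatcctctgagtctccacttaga
In Isg15 there were 3 overlapping matches, starting 78, 72 and 66 bases before the start, and in Bst2 there were 2, starting 130 and 124 bases before it. Ifit1 had matches on the other strand at 104 and 85 bases and Ifit3 at 156 and 122 bases before the start. The Oasl1 and Oasl2 windows held no match to either motif, which says only that these letters are not in these windows. For Oasl1, Oasl2 and Ifit3 the gene position in RefSeq starts upstream of the transcript start used here, so that their windows lie partly or, for Ifit3, wholly inside it. In the GENCODE annotation of this build the Bst2, Oasl2, Isg15 and Ifit3 windows lie in no exon. The Oasl1 window overlaps 36 bases of an exon of the antisense gene Gm13822, and the Ifit1 window holds 18 bases of the first exon of Ifit1 and 15 bases of an exon of Ifit1bl2 on the other strand. The 12 members with a match to GAAANNGAAA showed a median of -0.20 for the log2 fold change between ORP4L KI and WT, and the 14 with a promoter but no match showed -0.43.

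The total count per library was 12918187 to 15912921 in WT and 16757959 to 19665679 in ORP4L KI. Counts of Osbp2, which encodes mouse ORP4L, were 0, 0 and 1 in WT against 188, 742, 155 and 443 in ORP4L KI, so the counts follow the labels, although reads of the human insert and of mouse Osbp2 cannot be told apart. ORP4L KI replicate 1 stands apart from the other libraries, with 14.27% of its counts in 10 genes led by the granulocyte gene S100a9, against 5.23% to 7.96% in the other 6 libraries. Values of single libraries are given in the order of replicates 1, 2 and 3 for WT and 1, 2, 3 and 4 for ORP4L KI. CPM are counts scaled to a common library size with TMM, a scaling that sets most genes equal between libraries, and serve to compare a gene between libraries. RPKM are the deposited values per length of transcript, and serve to compare genes with each other. A log2 fold change is that of ORP4L KI over WT, given with its standard error (SE) and with a p adjusted over all genes tested.

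Of the 35 interferon-stimulated genes, 31 had a log2 fold change below 0 between ORP4L KI and WT T-cells, 4 were called lower and none was called higher. With edgeR's quasi-likelihood test, 4 of 35 members (11.4%), Bst2, Oasl1, Oasl2 and Usp18, were called, and all 4 fell. The rule for a call was taken from the lines of the study's volcano plot, a p under 0.01 before adjustment together with a change of over 1 in size on the log2 scale. Of all 13462 genes tested, 4.68% were called by this rule, 2.3% lower and 2.38% higher. DESeq2's Wald test called the same 4 members by this rule, beside 2.71% of all genes lower and 3.64% higher. At an adjusted p under 0.05 edgeR called no member, and 3 of all genes (0.0223%, with 0.0149% lower). At that threshold DESeq2 called 6 members, all lower (Bst2, Dhx58, Oas2, Oasl1, Oasl2 and Usp18), beside 5.82% of all genes, 2.72% lower. An unadjusted p under 0.05 was found for 13 members in both tests, all 13 lower, namely Bst2, Dhx58, Isg15, Isg20, Mx1, Mx2, Oas2, Oasl1, Oasl2, Rsad2, Rtp4, Stat2 and Usp18. This is 37.1% of the members, where edgeR gave 13.7% of all genes, 6.86% in the lower direction, and DESeq2 7.19% in the lower direction. The 31 log2 fold changes below 0 made up 88.6% of the members, against 48.5% of all genes with edgeR and 47.1% with DESeq2, and those of Cmpk2, Oas3, Oas1a and Samd9l were above 0. The median over the 35 members was -0.45, beside 0.01 over all genes tested, and single members ranged from -1.23 for Oasl1 to 0.53 for Cmpk2. The ORP4L KI libraries all lay below the WT libraries for 10 members (28.6%), against 7.38% of all genes, and no member had every ORP4L KI library above WT, as 6.43% of all genes did. These 10 were Dhx58, Irf9, Mx1, Mx2, Oas2, Oasl1, Oasl2, Rsad2, Stat2 and Usp18. In 7 fits that each left out 1 library, 0 to 5 members were called by the first rule. The count was 0 without WT replicate 2, where edgeR left 8 members at an unadjusted p under 0.05, 2 without WT replicate 1 and 1 without ORP4L KI replicate 4. Calls over all genes also dropped there, from 630 with every library to 328, 438 and 442, in that order. Oasl1 was called in 6 of these 7 fits, Oasl2 in 5, Bst2 in 3 and Usp18 in 2.

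**Figure D1:**
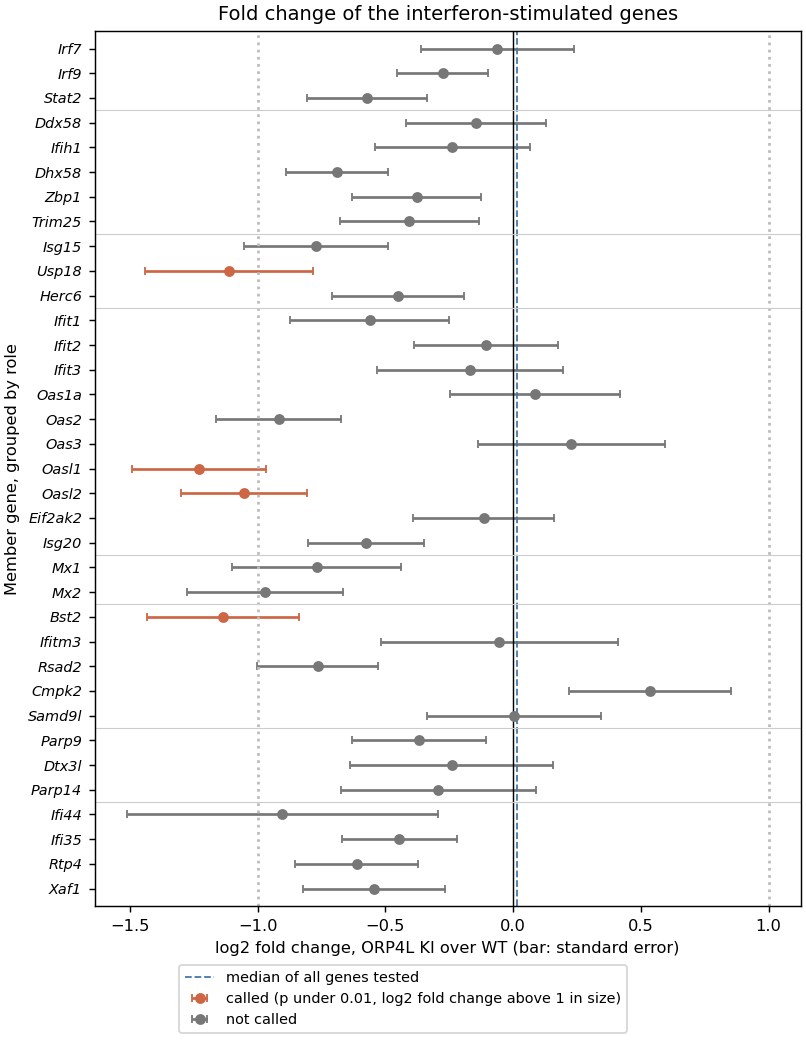
Log2 fold change of each of the 35 members (x axis, ORP4L KI over WT, bars are 1 standard error), grouped by role on the y axis, with called members in orange, other members in grey and the median of all genes tested as a dashed line. The 4 called members lie left of the dotted line at -1, and 31 of 35 points lie left of 0.

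Levels per length of transcript spanned a wide range. Ifitm3 had the highest mean over the 7 libraries with 495 RPKM, followed by Bst2 with 117 RPKM, Irf7 with 82.5 RPKM, Isg15 with 45.1 RPKM and Isg20 with 33.7 RPKM. Ifi44 had the lowest, 0.582 RPKM, on 6 to 46 counts per library. Mean levels were above 10 RPKM for 15 members and under 10 RPKM for 20. Of the 4 called members, Bst2 ranked second in level, Oasl2 had 9.94 RPKM, Oasl1 4.89 RPKM and Usp18 3.90 RPKM.

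Among the 3 members that carry the signal, Stat2 and Irf9 were lower in every ORP4L KI library and Irf7 was not. Stat2, which carries the activating domain of ISGF3, was at 58.8, 59.6 and 64.5 CPM in WT and at 26.4, 51.9, 45.6 and 40.1 CPM in ORP4L KI. Its log2 fold change was -0.57 (SE 0.24, edgeR adjusted p = 0.317), and it was not called. Irf9, the DNA-binding subunit of ISGF3, was at 78.6, 82.0 and 82.2 CPM in WT and at 55.4, 78.0, 66.4 and 67.6 CPM in ORP4L KI, where replicate 2 came within 1 CPM of the lowest WT library. The log2 fold change of Irf9 was -0.28 (SE 0.18, edgeR adjusted p = 0.577). Irf7, the factor that amplifies the interferon response, was at 178, 169 and 117 CPM in WT and at 80.5, 195, 157 and 161 CPM in ORP4L KI. ORP4L KI replicate 1 was the lowest and replicate 2 the highest of all 7 libraries for Irf7, so the groups overlapped fully, with a log2 fold change of -0.06 (SE 0.30, edgeR adjusted p = 0.960).

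None of the 5 sensors and cofactors was called, and their log2 fold changes lay between -0.69 and -0.15. Dhx58, which encodes LGP2, a relative of RIG-I that tunes RNA sensing, was at 27.8, 27.2 and 19.7 CPM in WT and at 16.1, 16.3, 15.2 and 14.2 CPM in ORP4L KI. All 4 ORP4L KI libraries were below WT and lay close together, and the log2 fold change was -0.69 (SE 0.20, edgeR adjusted p = 0.150). Zbp1, a sensor of left-handed nucleic acids, was at 68.0, 60.5 and 45.9 CPM in WT and at 34.1, 63.4, 43.7 and 37.8 CPM in ORP4L KI, with ORP4L KI replicate 2 among the WT values. Trim25, the ubiquitin ligase that helps RIG-I signal, was at 81.7, 127 and 131 CPM in WT and at 124, 80.7, 67.6 and 68.9 CPM in ORP4L KI, so that each group had 1 library within the range of the other. Ddx58, which encodes RIG-I itself, ranged from 54.0 to 77.9 CPM in WT and from 39.2 to 84.1 CPM in ORP4L KI. Ifih1, which encodes MDA5, a sensor of long double-stranded RNA, ranged from 27.1 to 37.6 CPM in WT and from 18.7 to 43.6 CPM in ORP4L KI. For both, ORP4L KI replicate 2 was the highest of all 7 libraries.

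In the ISG15 system, Usp18 fell and Isg15 did not pass either rule. Isg15, the ubiquitin-like protein that is attached to other proteins after interferon, was at 48.7, 59.9 and 24.5 CPM in WT and at 24.6, 23.3, 26.8 and 29.2 CPM in ORP4L KI. WT replicate 3 lay within the ORP4L KI values, which spread little. The log2 fold change was -0.77 (SE 0.28, edgeR adjusted p = 0.254). Usp18 (chr6:121245906-121270917), the protease that removes ISG15 and also blocks the interferon receptor, was at 13.5, 9.31 and 6.32 CPM in WT and at 3.35, 5.75, 5.17 and 3.67 CPM in ORP4L KI. These values rest on 55 to 217 counts per library, and the lowest WT library was just above the highest ORP4L KI library. Usp18 fell from 9.70 ± 3.59 CPM (SD, n = 3) to 4.48 ± 1.16 CPM (SD, n = 4), with a log2 fold change of -1.11 (SE 0.33, edgeR adjusted p = 0.159). Without WT replicate 1, the highest, its log2 fold change was -0.80, and it stayed called only in the fits without WT replicate 3 or ORP4L KI replicate 2. Herc6, the ligase that attaches ISG15 in mice, ranged from 27.4 to 32.7 CPM in WT and from 15.9 to 31.2 CPM in ORP4L KI.

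Among the 10 members that act on RNA, the oligoadenylate synthetase family split. Oasl1 and Oasl2 fell, Oas2 was lower in every ORP4L KI library without being called, and Oas1a and Oas3 had log2 fold changes above 0. The Oas enzymes make the second messenger that activates RNase L on double-stranded RNA, while mouse Oasl1 lacks this activity and represses translation of Irf7. Oasl1 (chr5:114923143-114937911) was at 13.7, 20.9 and 12.4 CPM in WT and at 5.42, 8.05, 6.89 and 6.35 CPM in ORP4L KI, on 89 to 333 counts per library. It fell from 15.7 ± 4.61 CPM (SD, n = 3) to 6.68 ± 1.10 CPM (SD, n = 4), or 0.426 times the WT mean, and the groups did not overlap. The log2 fold change of Oasl1 was -1.23 (SE 0.26, edgeR adjusted p = 0.0766), the lowest adjusted p of the 35 members. Without WT replicate 2 it was -0.97, just short of the fold threshold. Reads of Oasl1 and of the antisense gene that overlaps its start cannot be told apart, as strand is not given in the sources used here. Oasl2 (chr5:114896926-114912245) was at 41.7, 56.8 and 32.4 CPM in WT and at 22.6, 21.4, 24.6 and 15.4 CPM in ORP4L KI. It fell from 43.6 ± 12.4 CPM (SD, n = 3) to 21.0 ± 3.96 CPM (SD, n = 4), or 0.481 times, again without overlap, with a log2 fold change of -1.05 (SE 0.25, edgeR adjusted p = 0.0968). It was -0.82 without WT replicate 2 and -0.93 without ORP4L KI replicate 4, and was not called in either fit. Oasl1 and Oasl2 lie next to each other, 10897 bases apart.

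Oas2 was at 32.7, 40.8 and 32.8 CPM in WT and at 26.8, 17.3, 16.3 and 14.6 CPM in ORP4L KI. ORP4L KI replicate 1 was nearest to WT, and the log2 fold change was -0.92 (SE 0.24, edgeR adjusted p = 0.126), just under 1 in size. Without ORP4L KI replicate 1 it was -1.14, and Oas2 was then called. Oas3, whose gene ends 3211 bases from Oas2, ranged from 35.7 to 38.9 CPM in WT and from 25.9 to 81.0 CPM in ORP4L KI, where the highest value was that of replicate 1, and its log2 fold change was 0.23. Without ORP4L KI replicate 1 the log2 fold change of Oas3 was -0.25. Oas1a was at 33.0, 29.2 and 14.5 CPM in WT and at 39.9, 26.9, 20.4 and 21.3 CPM in ORP4L KI, with a log2 fold change of 0.09 (SE 0.33, edgeR adjusted p = 0.949), and its reads may be shared with the near-identical Oas1g. In both Oas1a and Oas3, ORP4L KI replicate 1 was the highest of all libraries.

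The remaining RNA-directed members had overlapping groups. Isg20, an exonuclease that degrades single-stranded RNA, was at 44.97, 55.7 and 33.2 CPM in WT and at 27.8, 24.6, 36.1 and 31.2 CPM in ORP4L KI, where only replicate 3 was above a WT library. The log2 fold change of Isg20 was -0.58 (SE 0.23, edgeR adjusted p = 0.298). Ifit1, Ifit2 and Ifit3, which bind viral RNA and its translation machinery, had 5.23 to 22.0 CPM in all libraries and log2 fold changes of -0.56, -0.11 and -0.17. Reads of Ifit3 may be shared with its near-identical copy Ifit3b, which had a log2 fold change of -0.38. Eif2ak2, which encodes PKR, the kinase that halts translation on double-stranded RNA, ranged from 19.7 to 30.3 CPM in WT and from 13.9 to 27.3 CPM in ORP4L KI, with a log2 fold change of -0.11.

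Both Mx genes, dynamin-like GTPases that trap viral components, were lower in every ORP4L KI library than in WT, and neither was called. Mx1 was at 29.1, 26.2 and 26.3 CPM in WT and at 7.73, 22.7, 19.9 and 13.4 CPM in ORP4L KI. Mx2 was at 8.63, 8.55 and 8.50 CPM in WT and at 2.56, 5.26, 5.69 and 3.92 CPM in ORP4L KI. The WT libraries of Mx1 and Mx2 lay close together while the ORP4L KI libraries spread, with ORP4L KI replicate 1 lowest in both. The log2 fold changes were -0.77 for Mx1 (SE 0.33, edgeR adjusted p = 0.344) and -0.97 for Mx2 (SE 0.31, edgeR adjusted p = 0.180). The C57BL/6 strain is known to carry defective Mx1 and Mx2 alleles, so these are levels of RNA only.

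Among the effectors at membranes and in replication, Bst2 fell, Rsad2 was lower in every ORP4L KI library, and Ifitm3, Cmpk2 and Samd9l had no common direction. Bst2 (chr8:71534255-71537472), or tetherin, which holds budding virus at the cell surface, was at 157, 179 and 69.9 CPM in WT and at 71.6, 57.7, 56.1 and 60.7 CPM in ORP4L KI. WT replicate 3 lay among the ORP4L KI libraries, below ORP4L KI replicate 1, so the groups overlapped by 1 library. Bst2 fell from 135 ± 57.7 CPM (SD, n = 3) to 61.5 ± 6.98 CPM (SD, n = 4), or 0.455 times, with a log2 fold change of -1.14 (SE 0.30, edgeR adjusted p = 0.121). It was -1.45 without WT replicate 3 and -0.88 without WT replicate 2, and was no longer called without WT replicate 1, WT replicate 2, ORP4L KI replicate 3 or ORP4L KI replicate 4. Rsad2, or viperin, an enzyme that makes a chain-terminating nucleotide, was at 30.2, 36.3 and 35.6 CPM in WT and at 24.6, 18.6, 23.4 and 13.4 CPM in ORP4L KI. Its groups did not overlap, and the log2 fold change was -0.77 (SE 0.24, edgeR adjusted p = 0.177). Cmpk2, a mitochondrial nucleotide kinase whose gene lies 12664 bases from Rsad2, ranged from 9.56 to 12.9 CPM in WT and from 11.9 to 27.3 CPM in ORP4L KI. Its log2 fold change was 0.53 (SE 0.32, edgeR adjusted p = 0.527), the highest of the 35, and it was 0.19 without ORP4L KI replicate 1. So the neighbours Rsad2 and Cmpk2, with no other coding gene starting between them, had log2 fold changes of opposite sign.

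Ifitm3, which blocks fusion of viruses in endosomes, was at 320.1, 494 and 198 CPM in WT and at 571, 136, 245 and 347 CPM in ORP4L KI. Among ORP4L KI libraries replicate 1 was highest and replicate 2 lowest, both outside the range of WT, and its log2 fold change was -0.05 (SE 0.46, edgeR adjusted p = 0.978). Samd9l, a restriction factor that limits translation, was at 78.4, 57.2 and 154 CPM in WT and at 88.0, 134, 86.7 and 77.3 CPM in ORP4L KI. The highest and the lowest of its 7 libraries were both WT, and the log2 fold change was 0.0023 (SE 0.34, edgeR adjusted p = 0.998).

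Parp9, Dtx3l and Parp14 act in ADP-ribosylation, the first pair as a complex of an inactive ADP-ribosyltransferase and a ubiquitin ligase. Their log2 fold changes were -0.37, -0.24 and -0.29, and none was called. In each of them ORP4L KI replicate 2 was the highest of all 7 libraries, at 40.9 CPM for Parp9, 52.3 CPM for Dtx3l and 121 CPM for Parp14. The WT libraries ranged from 33.1 to 39.2 CPM, 25.1 to 36.7 CPM and 67.4 to 101 CPM, and the other ORP4L KI libraries from 19.2 to 29.6 CPM, 16.9 to 21.4 CPM and 34.2 to 63.5 CPM. So 3 of 4 ORP4L KI libraries were below all WT libraries for these genes and the fourth was above. Parp9 and Dtx3l overlap by 558 bases, so their reads in the overlap cannot be told apart without strand.

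The last 4 members have varied or less certain roles and all had log2 fold changes below 0. Rtp4, which helps receptors reach the cell surface, was at 29.4, 28.0 and 19.1 CPM in WT and at 14.4, 21.0, 17.9 and 13.5 CPM in ORP4L KI, with a log2 fold change of -0.61 (SE 0.24, edgeR adjusted p = 0.296). Ifi35, a cytosolic interferon-induced protein, was at 58.9, 54.1 and 33.9 CPM in WT and at 32.7, 33.7, 35.5 and 41.9 CPM in ORP4L KI, with a log2 fold change of -0.45 (SE 0.22, edgeR adjusted p = 0.436). For Rtp4 and Ifi35, WT replicate 3 was among the ORP4L KI values and the other two WT libraries were above them. Xaf1, which promotes cell death, ranged from 11.5 to 21.2 CPM in WT and from 8.34 to 13.5 CPM in ORP4L KI. Ifi44, at 1.47 to 2.86 CPM in WT and 0.365 to 2.52 CPM in ORP4L KI, had a log2 fold change of -0.90 whose standard error was 0.61.

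**Figure D2:**
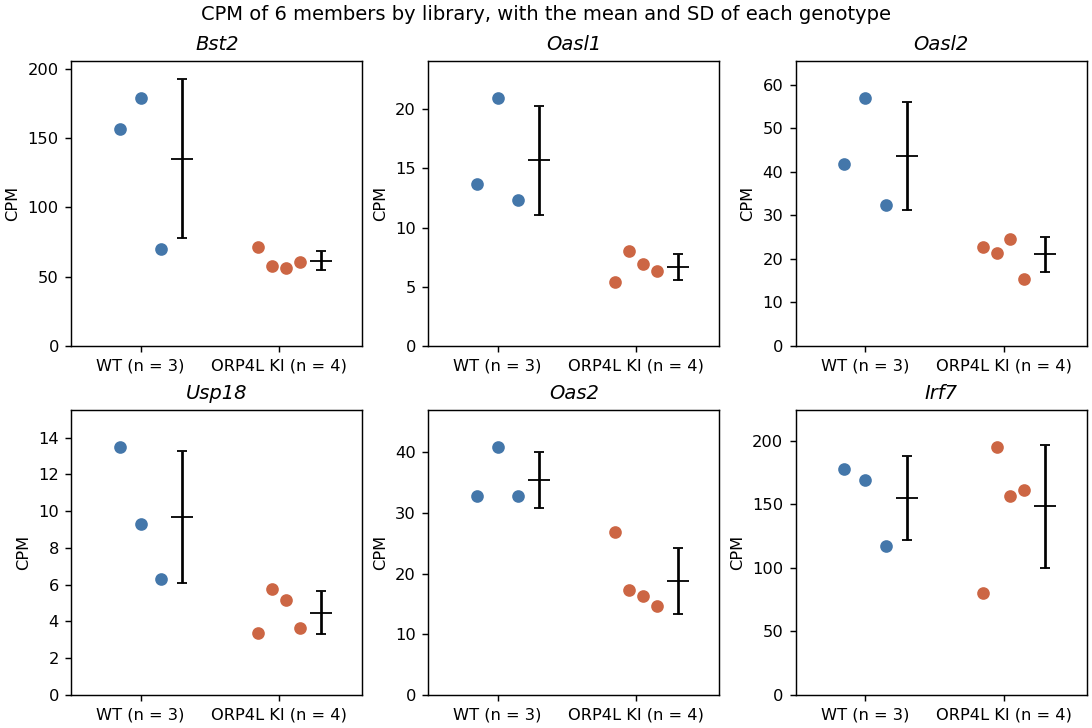
CPM (y axis, from 0) of the 4 called members, of Oas2, which passed the line for p but not the one for the fold, and of Irf7 as a signal gene with overlapping groups, by genotype, with 1 point per library and the mean and SD (bar) beside the points. WT replicate 3 of Bst2 lies among the ORP4L KI libraries, while the groups of Oasl1, Oasl2, Usp18 and Oas2 do not overlap.

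Inside each genotype the libraries were not even. The SD of log2(CPM + 1) had a median over members of 0.33 in WT and 0.40 in ORP4L KI, beside 0.28 and 0.33 over all genes tested. In WT it ran from 0.01 for Mx2 to 0.73 for Bst2, and in ORP4L KI from 0.09 for Dhx58 to 0.87 for Ifitm3. Some members were even in one genotype and uneven in the other. Isg15 had an SD of 0.66 in WT and 0.14 in ORP4L KI, and Bst2 had 0.73 and 0.16. The reverse held for Mx1, with 0.08 in WT and 0.65 in ORP4L KI, and for Oas3, with 0.06 and 0.71.

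Of the 4 ORP4L KI libraries, replicate 2 was the highest for 19 of 35 members (54.3%), against 33.4% of all genes. It was the lowest for 3 members (8.57%), Ifitm3, Isg15 and Isg20, against 33.4% of all genes. ORP4L KI replicate 4 was the lowest for 14 members (40.0%), against 19.6% of all genes. It was the highest for 2 (5.71%), Ifi35 and Isg15, against 16.3% of all genes. ORP4L KI replicate 1 was the highest for 11 members (31.4%), against 36.9% of all genes, among them Cmpk2, Ifitm3, Oas1a, Oas2, Oas3 and Rsad2. It was the lowest for 15 (42.9%), against 35.9% of all genes, among them Irf7, Irf9, Stat2, Mx1, Mx2, Oasl1 and Usp18. ORP4L KI replicate 3 was at an end of the range for 3 members (8.57%) each way, against 13.3% of all genes highest and 11.2% lowest. In WT, replicate 3 was the lowest for 18 of 35 members (51.4%), against 43.6% of all genes, and the highest for 11 (31.4%), against 37.9%. WT replicate 1 was the highest for 15 (42.9%), against 29.8% of all genes, and WT replicate 2 for 9 (25.7%), against 32.3%. No library was the highest or the lowest for all members in either genotype.

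The order of libraries went with transcript length in WT replicate 3. The 11 members highest there had a median longest transcript of 5181 bases and the 18 lowest there of 1938 bases, and over all genes tested the same medians were 4020 and 1918 bases. The 12 shortest members, with transcripts of 648 to 2201 bases, lay at a median of -0.45 log2 below the mean of their genotype in WT replicate 3, and the 12 longest at 0.24 above it. Over the 4487 shortest and the 4487 longest of all genes these medians were -0.28 and 0.21. In ORP4L KI replicate 2 the shortest 12 members were at 0.14 and the longest 12 at 0.45, while the 4487 shortest genes were at -0.24 and the 4487 longest at 0.22. Between genotypes the median log2 fold change of the 12 shortest members was -0.51, with 3 of them called, all lower. For the 12 longest, of 3806 to 7251 bases, it was -0.24, with none called. Over all genes the order was the opposite. The 4487 shortest genes had a median of 0.08, with 195 called, 82 of them lower. The 4487 longest had a median of -0.05, with 234 called, 133 of them lower. The part of transcript length in the difference between genotypes was not tested.

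The median CPM over the 35 members was 33.0, 33.1 and 32.8 in the WT libraries and 24.6, 26.9, 23.4 and 16.9 in the ORP4L KI libraries. All 4 ORP4L KI libraries were below all 3 WT libraries in this median, although only 10 single members showed that order. The summed share of counts of the members was 0.184%, 0.204% and 0.162% in WT and 0.163%, 0.155%, 0.135% and 0.134% in ORP4L KI, so the sum, which Ifitm3 leads, overlapped by 1 library.

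**Figure D3:**
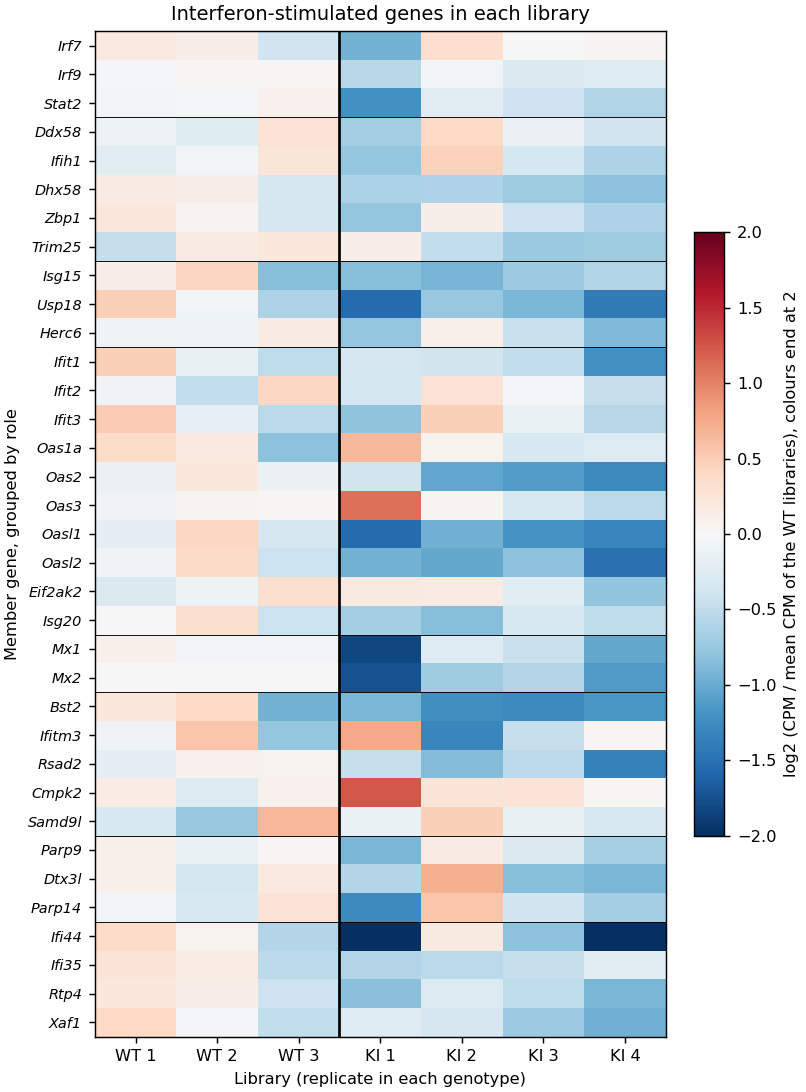
Colour map of log2 of the CPM over the mean of the WT libraries (colours end at 2 in size) for the 35 members in rows, grouped by role, and the 7 libraries in columns, with a thick line between genotypes. The ORP4L KI columns are mostly blue, meaning below the WT mean. ORP4L KI replicate 2 is the most mixed, with red cells for Irf7, Ddx58, Ifih1, Ifit3, Samd9l, Dtx3l and Parp14 among others. In ORP4L KI replicate 1 the cells of Cmpk2, Oas3, Oas1a and Ifitm3 are among the red ones.

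Beside the members, 86 other genes were examined, among them interferon ligands, receptors, nucleic acid sensors, negative regulators, interferon-gamma targets and close relatives of members. Of these, 61 passed the filter, 1 was called higher and 4 were called lower, where 4.68% of all genes were called in either direction. Among 18 type I interferon genes none passed the filter, 12 had no read in any library, and the others had at most 5 counts in a library, with 27 reads in all. Their RNA was therefore at or near the limit of 3 counts in these libraries. Ifng, the gene of interferon-gamma, which T-cells make, had 64.5 ± 4.17 CPM (SD, n = 3) in WT and 104 ± 38.1 CPM (SD, n = 4) in ORP4L KI, with a log2 fold change of 0.69 (SE 0.32, edgeR adjusted p = 0.387). Of 10 genes of receptors and of signaling below them, 1 was called. Ifnlr1, a receptor chain for interferon-lambda, rose from 1.38 ± 0.293 CPM (SD, n = 3) to 5.32 ± 4.13 CPM (SD, n = 4), a log2 fold change of 1.94 (SE 0.56, edgeR adjusted p = 0.153), highest in ORP4L KI replicate 1. The type I receptor chains Ifnar1 and Ifnar2 had log2 fold changes of -0.38 and -0.03, Jak1 0.05 and Tyk2 -0.50, and none of these was called.

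Among 15 genes of nucleic acid sensing, 12 had log2 fold changes below 0, as 48.5% of all genes did. Of the 15, Tlr7 was called lower, as 2.3% of all genes were. Tlr7, the endosomal receptor for single-stranded RNA, was at 16.6, 19.998 and 19.2 CPM in WT and at 9.19, 8.82, 9.30 and 6.78 CPM in ORP4L KI, and fell with a log2 fold change of -1.13 (SE 0.21, edgeR adjusted p = 0.0644). The groups of Tlr7 did not overlap. Among 18 tested target genes of interferon-gamma, 3 were called lower, beside the same 2.3% of all genes. Irf8, a factor of myeloid and dendritic cells, had a log2 fold change of -1.30 (SE 0.27, edgeR adjusted p = 0.0708), Ciita, which switches on MHC class II genes, -1.49 (SE 0.40, edgeR adjusted p = 0.129), and Cxcl9, a chemokine of myeloid cells, -1.85 (SE 0.47, edgeR adjusted p = 0.112). The other 15 were not called, and the median over the 18 was -0.25. None of 6 negative regulators was called, and Socs3 and Ptpn6 had log2 fold changes of 0.59 and -0.10. None of 11 tested close relatives of members was called either. Ifitm2 and Ifitm1 had log2 fold changes of -0.18 and -0.0034.

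Markers of some other cell types, though not of all, moved with genotype beside the interferon-stimulated genes. Of all genes tested, 2.3% were called lower and 2.38% higher by the first rule. As fewer cells of a type and less RNA per cell cannot be told apart in bulk libraries, the shares of counts of the markers are given without more. The 14 T-cell markers, among them Thy1 and Lck, took 0.280% to 0.369% of the TMM-scaled counts in WT and 0.187% to 0.526% in ORP4L KI, with none called and none at 0 in any library, so the labelled cell type was present in all. Plasmacytoid dendritic cell markers took 0.0306% to 0.0434% in WT and 0.0120% to 0.0193% in ORP4L KI, with 8 of 8 below 0 in log2 fold change, none at 0 in any library and 5 called lower (Siglech, Spib, Klk1, Ccr9 and Cox6a2). Siglech, a defining receptor of these cells, was at 107, 144 and 80.9 CPM in WT and at 31.3, 26.2, 16.4 and 16.4 CPM in ORP4L KI, with a log2 fold change of -2.29 (SE 0.30, edgeR adjusted p = 0.0601). Conventional dendritic cell markers took 0.0424% to 0.0641% in WT and 0.0127% to 0.0259% in ORP4L KI, with 8 of 8 below 0, none at 0 and 6 called lower (Cd209a, Itgax, Flt3, Clec9a, Clec10a and Zbtb46). NK cell markers took 0.0598% to 0.0715% and 0.0259% to 0.0851%, with 6 of 9 called lower (Gzma, Klra8, Klrb1c, Klra4, Klre1 and Ncr1). Eomes, a factor of NK cells and of activated T-cells, was at 92.7, 65.9 and 101 CPM in WT and 105, 534, 218 and 184 CPM in ORP4L KI, higher in every ORP4L KI library and not called (log2 fold change 1.59, SE 0.50, edgeR adjusted p = 0.178). Granulocyte markers took 0.169% to 0.490% in WT and 14.6%, 1.03%, 3.07% and 5.33% in ORP4L KI, with all 14 called higher. Monocyte and macrophage markers took 0.294% to 0.483% and 0.215% to 0.723%, with 2 of 12 called lower and 1 called higher. B-cell markers took 0.0365% to 0.0622% and 0.0215% to 0.0638%, erythroid markers 0.985% to 1.86% and 0.116% to 0.868%, and platelet markers 0.0187% to 0.0227% and 0.00996% to 0.0386%, with none called. The part of these cell types in the levels of the members was not tested.

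**Figure D4:**
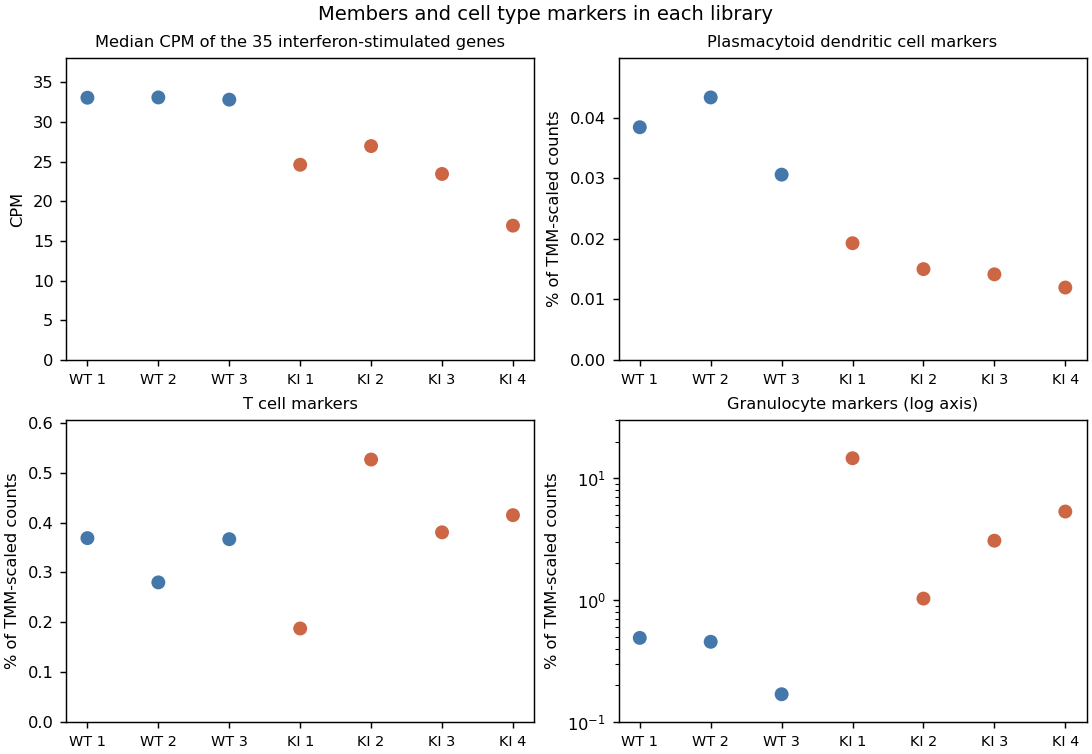
Median CPM of the 35 members and summed share of TMM-scaled counts (percent) of plasmacytoid dendritic cell, T-cell and granulocyte markers in each library, with 1 point per library, WT in blue and ORP4L KI in orange, and a log axis for the granulocyte markers. The member median and the plasmacytoid dendritic cell share are both lower in all 4 ORP4L KI libraries, the T-cell share overlaps between genotypes, and the granulocyte share is highest in ORP4L KI replicate 1.

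Leaving out ORP4L KI replicate 1, which holds the most granulocyte counts, kept the number of called members at 4, with Oas2 in place of Usp18, beside 2.19% of all genes called lower in that fit, and gave a median log2 fold change of -0.42. Of the ORP4L KI libraries, replicate 2 was the highest for most members and held the fewest granulocyte counts. Leaving it out gave 5 called members, beside 2.38% of all genes called lower, and a median of -0.63. In that fit 19 members lay lower without overlap, against 12.4% of all genes.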

How the data were processed

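Primary T-cells of 4 ORP4L KI and 3 WT mice were grouped by the genotype in the sample labels. The methods name blood or spleen as source and a naive CD4+ kit with later culture in IL-2 and PHA, without saying which applied here. The authors prepared mRNA libraries (VAHTS V3 kit, NovaSeq 6000), trimmed adapters, discarded reads under 17 nt, mapped with FANSe3 to mouse mRNAs (mm10 per the processing notes), merged splice variants and deposited a read count per gene without normalization. The authors also deposited RPKM computed from the longest transcript, used here only to set levels of genes side by side. Strand, and what was done with reads matching more than 1 gene, are not given in the sources used here, so counts of near-identical or overlapping genes are uncertain.

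Counts were tested in R 4.3.3 with edgeR 4.0.16 (filterByExpr with a minimum of 10 counts and 15 in all, TMM, quasi-likelihood test without covariates, Benjamini-Hochberg adjustment over all 13462 genes tested). The standard error is the log2 fold change divided by the square root of F. Genes were called at p under 0.01 before adjustment together with a change of more than 1 in size on the log2 scale, and, as a separate rule, at an adjusted p under 0.05. The total count per library was 12918187 to 19665679, and 3 counts is the limit that a count of 0 allows, for counting error only. Alternatives were scaling by upper quartile, by total counts or by the size factors of DESeq2, no filter, at least 10 counts in every library, DESeq2 1.42.0's Wald test, the replicate number as a block, each library left out, and, for the spread, a pseudocount of 0.5 in place of 1 CPM. No 2 libraries of the same genotype agreed within sampling noise (chi-square over degrees of freedom at least 27.8). In data simulated for this comparison, 197 of 13270 genes differed by 2 on the log2 scale. The first rule found 193 of them (98.0%) and 81 false ones, the second 171 (86.8%) and 10 false ones. No member changed by as much as 2, the largest change being -1.23 for Oasl1. The shares found therefore do not carry over to changes of the size seen in the members.

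Members, pathway genes and markers were taken from lists of symbols that were chosen with earlier results of these data known. Values in every library are given for members that were called, had groups that did not overlap, or were among the 12 highest by mean RPKM. Genes of other lists are named if called, or else the 2 with the highest mean CPM, and further genes named were chosen after their values were seen. Some genes covered by this rule are not reported here. Promoters came from RefSeq (GRCm38.p6), gene positions from the same build. Python 3.11.15, pandas 2.3.3 and Matplotlib 3.10.9 were used for summaries and plots.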

Additional observations from a re-analysis of the deposited data

Results flagged for a closer look

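Of 35 members examined for a single distant library among the 4 ORP4L KI libraries, 2 had one, where chance gives 1.75. Cmpk2 was at 27.33 CPM in ORP4L KI replicate 1 and at 11.9 to 14.1 CPM in the other 3, and without that replicate its log2 fold change was 0.19 in place of 0.53. Dtx3l was at 52.31 CPM in ORP4L KI replicate 2 and at 16.9 to 21.4 CPM in the other 3, and without that replicate its log2 fold change was -0.80 in place of -0.24. Neither gene was called with or without that library.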

How the results depend on the processing

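With 3 mice against 4, single libraries decided several calls. The 4 called members were 0 to 5 in the 7 fits that left out 1 library, and the count at an adjusted p under 0.05 was 0 to 1 there (Oasl1, without ORP4L KI replicate 2). With all 7 libraries the first count was 4 to 5 under every other scaling, filter and test. The second was 0 except with DESeq2's Wald test, which gave 6. Over all genes, 328 to 805 were called by the first rule in the 7 fits that left out 1 library. Without ORP4L KI replicate 2, 342 of all genes (2.56%) passed an adjusted p under 0.05. Whether replicate numbers pair the mice is not known. Deviations from the genotype mean correlated at 0.18, -0.61 and 0.05 between same-numbered libraries, and at 0.57 between WT replicate 3 and ORP4L KI replicate 2. Such correlations can neither show nor exclude a pairing, and ORP4L KI replicate 4 had no same-numbered WT library. With the replicate number as a block, in 6 libraries, 1 member, Oasl1, was called, as it was alone without ORP4L KI replicate 4 and without the block. Of all genes, 466 were called with the block and 442 without ORP4L KI replicate 4 and without the block, against 630 in the main fit of all 7 libraries. The median of -0.45 ranged from -0.63 to -0.32 with 1 library left out and was -0.37 with the block. The 10 members without overlap were 10 to 19 with 1 library left out, 17 without WT replicate 3 (14.4% of all genes lower without overlap in that fit) and 19 without ORP4L KI replicate 2 (12.4%). The 5 called pathway genes were 2 to 6, with 2 (Irf8 and Tlr7) without WT replicate 1 or WT replicate 2 and 3 without ORP4L KI replicate 4. Scaling by total counts shifted the median over all genes by -0.14 and the share of lower calls among all calls from 49.2% to 59.7%, while members stayed 0.44 below the median of all genes, against 0.46. Over all genes 784 passed an adjusted p under 0.05 with DESeq2's Wald test, against 3.

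Of 489 log2 fold changes of members under the alternatives, 445 kept direction and side of the threshold, 15 were weaker, 6 stronger and 23 reversed, 4 of them in fits of all 7 libraries. Reversed values were -0.054 with upper-quartile scaling, -0.14 with total counts and -0.0057 with the stricter filter for Samd9l, -0.071 with total counts for Oas1a, and 0.0088 and 0.065 with the block for Ifit2 and Eif2ak2. With 1 library left out, ranges that crossed 0 were -0.23 to 0.14 for Irf7, -0.40 to 0.025 for Ddx58, -0.30 to 0.16 for Ifit2, -0.48 to 0.17 for Ifit3, -0.20 to 0.31 for Oas1a, -0.25 to 0.41 for Oas3, -0.24 to 0.081 for Eif2ak2, -0.47 to 0.33 for Ifitm3 and -0.27 to 0.51 for Samd9l. The cause was not tested.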

Other observations

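Xist and Ddx3y, which mark female and male cells, split the libraries across genotypes. Xist was at 373, 15.7 and 18.6 CPM in WT and at 391, 651, 22.1 and 22.3 CPM in ORP4L KI, and Ddx3y was high where Xist was low, so both genotypes held both kinds of library. ORP4L KI replicate 2, the highest of its genotype for 19 of 35 members, had high Xist, and WT replicate 3, the lowest of its genotype for 18, had low Xist. ORP4L KI replicate 1, also with high Xist, was the lowest of its genotype for 15 members, and replicate 4, with low Xist, for 14. The part of sex in these orders was not tested.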
